A study of Saccharomyces cerevisiae with 4 samples.

Results

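The cell wall module of budding yeast (Saccharomyces cerevisiae) comprised 38 genes that build, remodel or decorate the wall: glucan and chitin synthases, wall-remodelling enzymes, Pir and GPI-anchored wall proteins, daughter-cell separation genes, and the integrity kinase SLT2 with its transcription factor RLM1. Members were chosen by name, as the spots whose gene symbol or alias in the platform annotation stood in the list. The rule uses no measured value, but the list was drawn up with earlier results of these data known. All 38 of them had a spot, among 5574 genes named on the array. They occupied 45 spots, 7 of them having more than 1, and 37 were measured on all 4 arrays and tested with the 5137 genes so measured.

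On each of the 4 spotted arrays, total RNA of null cells (Cy5) was hybridised together with that of the wild type (Cy3). Null cells had been grown in high copper for 2 arrays and in low copper for 2 arrays, and in both conditions 1 array bore the word repeat in its title. The mutated gene was given as lpz8, which was read here as HAA1 from the title of the series and the value of the HAA1 spot. The strain background, the form of the null allele, the copper concentrations, the copper condition of the wild-type cells and whether the arrays came from separate cultures were not stated in the labels. Every value is a log2 ratio of null over wild type, centred on its array, so that a positive value is a higher level in null cells.

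The yeast wall is a mesh of branched β-1,3-glucan, to which β-1,6-glucan, chitin and mannoproteins are joined. Glucan and chitin are made by synthases in the plasma membrane, and transglycosylases and glucanases in the wall then cut and rejoin the chains. GPI-anchored proteins are attached largely through β-1,6-glucan, and Pir proteins directly to β-1,3-glucan. After cytokinesis the daughter cell secretes chitinase and glucanases that dissolve the septum, and wall damage is relayed through protein kinase C to the MAP kinase Slt2 and the factor Rlm1. Haa1 is a transcription factor related in its DNA-binding domain to the copper-sensing activator Ace1, and in later work it is known for the response to weak acids.

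The single HAA1 spot read -6.96 and -4.15 on the high copper arrays and -7.35 on low copper replicate 2, with no value on low copper replicate 1. The dyes were not exchanged on any array, and a gene's response to the dye cannot be told apart from the genotype. Values were missing for 4.79% and 5.82% of spots on the high copper arrays, and for 17.9% and 5.42% on the low copper arrays. The spread over named spots measured on all 4 arrays was taken as the median absolute deviation, scaled to the SD of a normal distribution. It was 0.257 and 0.268 in high copper, and 0.376 and 0.255 in low copper, so low copper replicate 1 had the widest spread. Across genes, which are not independent replicates, Pearson's r was 0.708 within the high copper pair, 0.46 within the low copper pair and 0.309 to 0.484 across conditions. No spot intensities or backgrounds were used, which leaves the signal behind each ratio unknown, and precision is limited by there being 4 arrays. P-values measure how far these arrays scatter, and that scatter may be technical.

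One block of spots stood apart and touched 6 members. On high copper replicate 1, the values of sector 4 of the 16 printed sectors did not match the mean of the other 3 arrays at the same positions (Spearman's rho of -0.03 across spots), but did so 1 printed row further on (rho 0.546). Every other pair of sector and array gave 0.311 to 0.647 at the same position. The lowest were sector 4 on the low copper arrays (0.311 and 0.392) and on high copper replicate 2 (0.319). There the mean compared with included the displaced array. The members with a spot there were GSC2 (1 of its 2 spots), SCW10, SUN4, CWP1, CWP2 and DSE1. Their results are given as deposited and again with the sector moved back by 1 row. In the other lists, ROM2, CHS6, MOB2 and TEC1 were also tested with a spot there. ROM2 read -4.01 on high copper replicate 1 as deposited and 0.17 on replicate 2. Counts and medians of those lists are given as deposited alone.

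**Figure D1:**
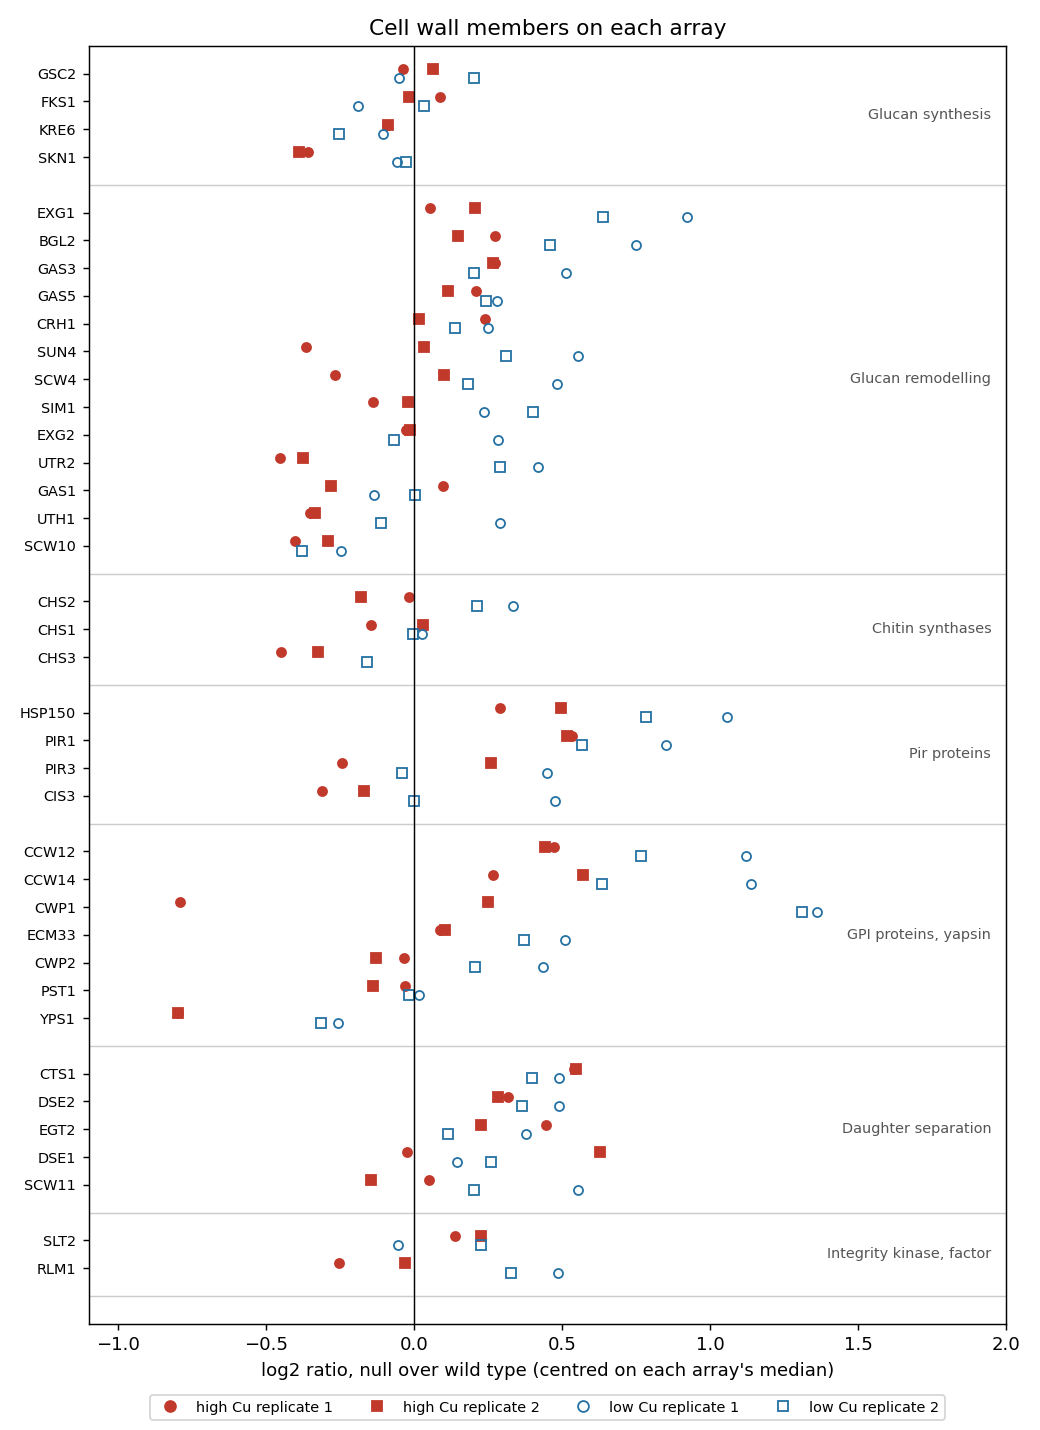
Centred log2 ratio of null over wild type (horizontal axis) for each of the 38 cell wall genes (vertical axis, grouped by role). Filled symbols are the 2 high copper arrays and open symbols the 2 low copper arrays; the 2 high copper points of YPS1 coincide at -0.80. CCW12, HSP150, CCW14, PIR1 and CTS1 lie right of 0 on all 4 arrays. All 7 genes of the GPI group have both filled points left of both open points (27.0% of all genes tested).

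Over both copper conditions, 10 of the 37 genes passed the test at an adjusted p under 0.05 (limma, Benjamini-Hochberg over all genes), against 11.7% of all genes tested. Among them, 8 were higher in null cells (6.44% of all genes) and 2 were lower (5.24%). The higher genes encode structural wall proteins (CCW12, CCW14, PIR1 and HSP150), glucanases (EXG1 and BGL2) and separation proteins (CTS1 and DSE2). The lower genes encode the yapsin protease Yps1 and the glucanase-like protein Scw10. The median over the 37 genes was 0.13, against -0.02 over all genes. Counts over both conditions in each list below stand against the same shares of all genes: 11.7% called, 6.44% higher and 5.24% lower. Of the 5137 genes, 1831 had an unadjusted p under 0.05 in this limma test. With the called genes included, 13 of the 37 were above 0 on all 4 arrays (20.0% of all genes) and 4 below 0 on all 4 (21.6%). Whether members passed depended on the arrays kept: without high copper replicate 1, or without high copper replicate 2, no gene passed with limma. A fit with 1 array left out took its spread from the pair left whole. A lost or gained call there need not mean a changed mean. With 1 array left out at a time, the mean of CCW12 ran from 0.61 to 0.79 and that of YPS1 from -0.56 to -0.53. Without low copper replicate 1 the members called numbered 10 (18.7% of all genes), and without low copper replicate 2 they numbered 14 (37.8% of all genes, the same share as among the members). With the displaced sector moved back, 11 were called (14.6% of all genes): CWP1 and DSE1 joined and SCW10 left.

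**Figure D2:**
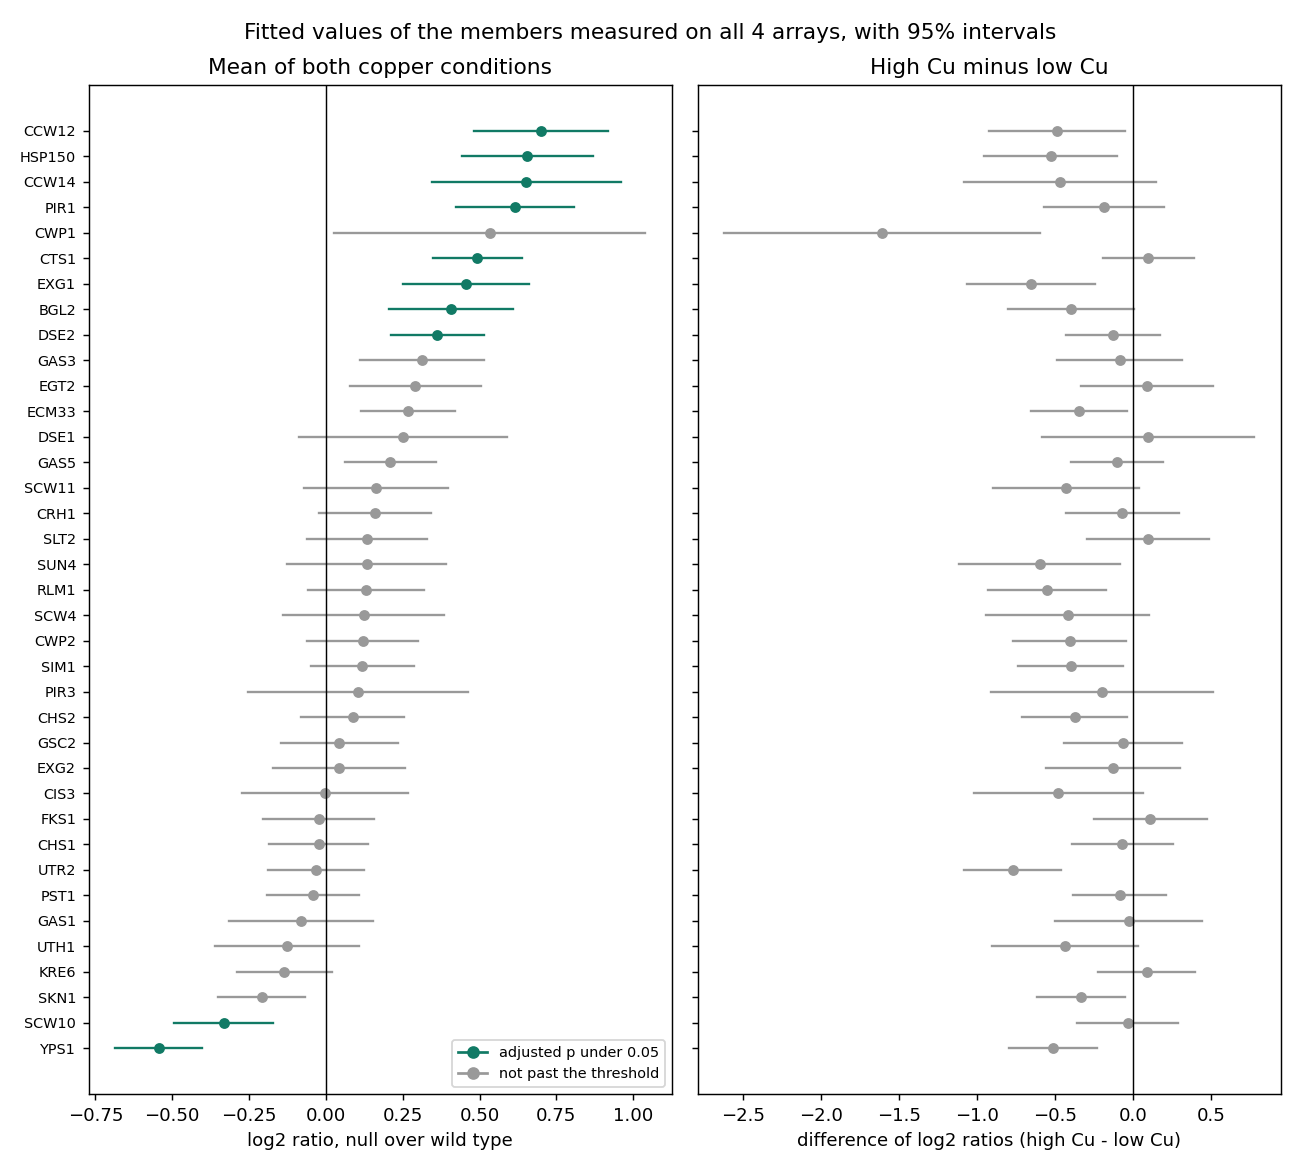
Fitted values with 95% intervals for the 37 genes measured on all 4 arrays, ordered by the mean of both copper conditions (left panel, log2 ratio of null over wild type) with the high minus low copper difference beside it (right panel). Green marks the 10 genes past the adjusted threshold, 8 of them right of 0 and 2 left of it; in the right panel no gene passed, and 31 of the 37 points lie left of 0.

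The largest mean lay among the GPI proteins. CCW12 (YLR110C), which encodes a major mannoprotein of the wall, read 0.47 and 0.44 in high copper and 1.12 and 0.77 in low copper. It averaged 0.70 ± 0.32 (SD, n = 4), or 1.62-fold higher in null cells, with an adjusted p of 0.0259. All 4 arrays lay above 0 and the conditions did not overlap. CCW22, a gene outside the list chosen after its values were seen, had nearly the same condition means. These were 0.456 in high copper and 0.932 in low copper, against 0.457 and 0.944 for CCW12. Hybridisation of one gene's RNA to the other's spot was not tested, so the 2 signals may not be separate. CCW14 (YLR390W-A), a mannoprotein of the inner wall layer, read 0.27 and 0.57 in high copper and 1.14 and 0.63 in low copper. Its mean was 0.65 ± 0.36 (SD, n = 4; 1.57-fold; adjusted p 0.0432), and its 2 spots gave like values, between 0.22 and 1.22. Folds are given on the assumption that the deposited logs have base 2.

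YPS1 (YLR120C), an aspartic protease anchored at the cell surface that sheds and processes wall proteins, was the member called lower with the lowest adjusted p. It read -0.80 and -0.80 in high copper and -0.26 and -0.32 in low copper. The mean was -0.54 ± 0.30 (SD, n = 4; adjusted p 0.0213), which is 1.46-fold lower in null cells. It was also the only member called within a condition as deposited, in high copper (-0.80, SE 0.07, adjusted p 0.0304), where 2.57% of all genes passed, 1.50% lower and 1.07% higher. In low copper its value was -0.29 (SE 0.07, adjusted p 0.107), and the difference of -0.51 between conditions (95% interval -0.79 to -0.23) had an adjusted p of 0.256.

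CWP1 (YKL096W), a GPI protein found at the birth scar, had the largest low copper value of the module and depended on the displaced sector. It read -0.79 and 0.25 in high copper and 1.36 and 1.31 in low copper, a mean of 0.53 ± 1.02 (SD, n = 4) that did not pass (adjusted p 0.129). With the sector moved back, the high copper values became 0.52 and 0.25. The mean was then 0.86 ± 0.56 (SD, n = 4; adjusted p 0.0119), and the low copper mean of 1.34 also passed (adjusted p 0.0235). The call thus turned on 1 value. With the sector left out, the mean was 0.79 (adjusted p 0.0338), and over all alternatives the adjusted p ran from 0.0119 to 0.392. The 2 low copper arrays lay above both high copper arrays either way.

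Its neighbour on the chromosome, CWP2 (YKL096W-A), encodes an abundant small mannoprotein. It read -0.04 and -0.13 in high copper and 0.44 and 0.21 in low copper, and -0.38 in place of -0.04 when moved back. The mean of 0.12 did not pass (adjusted p 0.264), and moving the sector back made it 0.03 (adjusted p 0.763). ECM33, a GPI protein needed for wall integrity, read 0.09 and 0.10 in high copper and 0.51 and 0.37 in low copper (mean 0.27 ± 0.21, SD, n = 4; adjusted p 0.0575). Its relative PST1, whose transcript is known to respond to wall damage, stayed within -0.14 and 0.02 on all arrays (adjusted p 0.595). GPI genes thus split into 2 higher, 1 lower and 4 that did not pass, with a median of 0.27.

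**Figure D3:**
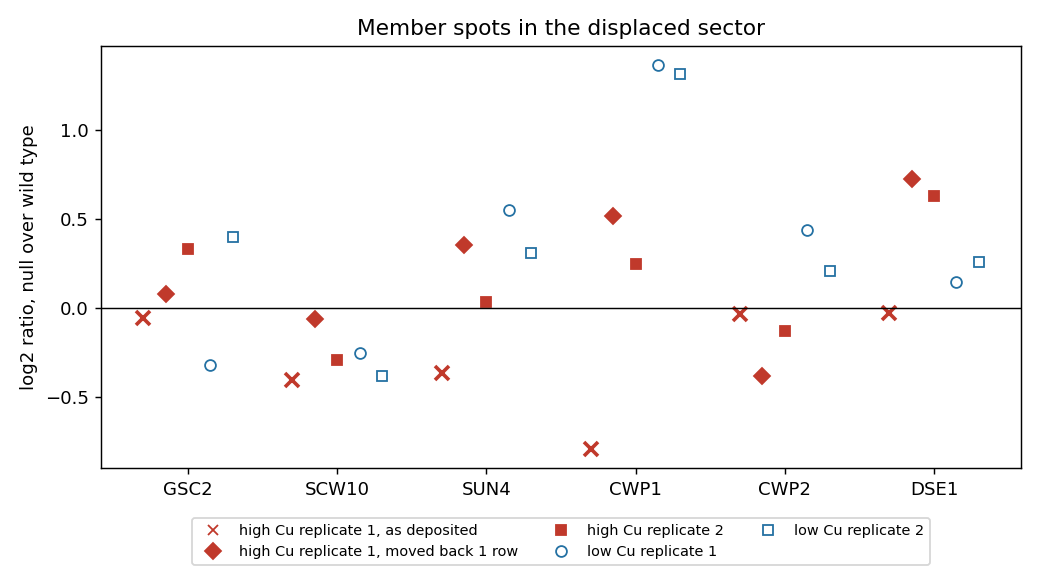
Log2 ratio of null over wild type (vertical axis) at the 6 member spots in the displaced sector (horizontal axis). Crosses are high copper replicate 1 as deposited, diamonds the same array with the sector moved back by 1 row, and the other symbols the remaining 3 arrays. CWP1 stands at -0.79 as deposited and 0.52 moved back, DSE1 at -0.03 and 0.72, and SCW10 at -0.40 and -0.06.

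Among the Pir proteins, 2 of 4 passed and both were higher. PIR1 (YKL164C) read 0.53 and 0.52 in high copper and 0.85 and 0.57 in low copper. The mean was 0.62 ± 0.16 (SD, n = 4; 1.53-fold; adjusted p 0.0259), with the conditions close together. HSP150 (YJL159W), the secreted heat shock glycoprotein also called Pir2, read 0.29 and 0.50 in high copper and 1.06 and 0.78 in low copper (mean 0.66 ± 0.34, SD, n = 4; 1.58-fold; adjusted p 0.0265). Its 2 low copper arrays lay above both high copper arrays.

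The other Pir genes did not pass, although each stands next to one that did: PIR3 beside PIR1 and CIS3 beside HSP150, in the gene order of the RefSeq assembly R64. PIR3 read -0.25 and 0.26 in high copper and 0.45 and -0.04 in low copper, scattered on both sides of 0 in each condition (adjusted p 0.584). CIS3, also called Pir4, read -0.31 and -0.17 in high copper and 0.47 and -0.0025 in low copper (adjusted p 0.986). Its 2 spots agreed in sign on 3 arrays and gave -0.14 and 0.13 on low copper replicate 2. Pir genes share repeats, and hybridisation of one gene's RNA to another's spot cannot be told apart from its own signal on such arrays. The list's median was 0.36.

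Of the 13 glucan-remodelling genes, 2 passed as higher and 1 as lower, with a median of 0.12. This median was 0.04 without high copper replicate 2, 0.07 without low copper replicate 1 and 0.19 without low copper replicate 2. EXG1 (YLR300W), the major exo-1,3-β-glucanase, read 0.05 and 0.21 in high copper and 0.92 and 0.64 in low copper. Its mean of 0.45 ± 0.40 (SD, n = 4; 1.37-fold; adjusted p 0.0398) came mostly from the low copper arrays. BGL2 (YGR282C), the most abundant endo-β-1,3-glucanase of the wall, read 0.27 and 0.15 in high copper and 0.75 and 0.46 in low copper (mean 0.41 ± 0.26, SD, n = 4; 1.33-fold; adjusted p 0.0459). Both genes were above 0 on all arrays and higher on both low copper arrays than on either high copper array. The call of BGL2 was close to the threshold and ended, among other settings, without centring, with genes measured on at least 3 arrays and with the displaced sector left out.

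SCW10 (YMR305C) encodes a soluble wall protein related to Bgl2, and read -0.40 and -0.29 in high copper and -0.25 and -0.38 in low copper. The mean of -0.33 ± 0.07 (SD, n = 4; adjusted p 0.0443) made it 1.26-fold lower in null cells. This call rested on a displaced value: moved back, high copper replicate 1 read -0.06, the mean was -0.25 ± 0.14 (SD, n = 4) and the adjusted p was 0.0794. Left out, the adjusted p was 0.104, and over all alternatives it ran from 0.0252 to 0.276. SCW4, its close relative, read -0.27 and 0.10 in high copper and 0.48 and 0.18 in low copper (adjusted p 0.398).

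The glucanosyltransferase family of GAS genes, which elongate β-1,3-glucan, showed small values. GAS3 read 0.27 and 0.27 in high copper and 0.51 and 0.20 in low copper (mean 0.31 ± 0.14, SD, n = 4; adjusted p 0.0663). GAS5 read 0.21 and 0.11 in high copper and 0.28 and 0.24 in low copper (mean 0.21 ± 0.07, SD, n = 4; adjusted p 0.0755). Both were above 0 on all arrays but did not pass, and GAS1, the main enzyme of the family, read 0.10 and -0.28 in high copper and -0.14 and 0.00 in low copper (adjusted p 0.529).

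The transglycosylases that join chitin to glucan differed in pattern. UTR2 read -0.46 and -0.38 in high copper and 0.42 and 0.29 in low copper, so its means of -0.42 ± 0.06 and 0.35 ± 0.09 (SD, n = 2 each) had opposite signs. CRH1, its relative, read 0.24 and 0.02 in high copper and 0.25 and 0.14 in low copper, overlapping and above 0 throughout (adjusted p 0.172). UTR2 is taken up again with the copper comparison.

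The SUN family, which acts on glucan during septation and daughter release, differed between its members. SUN4 read -0.37 and 0.03 in high copper and 0.55 and 0.31 in low copper, or 0.36 and 0.03 in high copper with the sector moved back (mean then 0.31 ± 0.21, SD, n = 4; adjusted p 0.0768, against 0.363 as deposited). Its conditions overlapped once moved back. SIM1 read -0.14 and -0.02 in high copper and 0.24 and 0.40 in low copper. UTH1 read -0.35 and -0.34 in high copper and 0.29 and -0.11 in low copper. None of them passed over both conditions (adjusted p 0.24 for SIM1 and 0.339 for UTH1). EXG2, a GPI-anchored exoglucanase, stayed between -0.07 and 0.28 (adjusted p 0.712).

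None of the 4 glucan synthesis genes passed over both conditions with limma, 1 of them (SKN1) having an unadjusted p under 0.05, and the list's median was -0.08. FKS1, the catalytic subunit of β-1,3-glucan synthase in growing cells, read 0.09 and -0.02 in high copper and -0.19 and 0.03 in low copper (mean -0.02, 95% interval -0.20 to 0.16). GSC2, the alternative subunit induced by stress, read -0.04 and 0.06 in high copper and -0.05 and 0.20 in low copper (mean 0.04, 95% interval -0.15 to 0.23). Its 2 spots disagreed in sign on low copper replicate 1, with -0.32 and 0.21, and on high copper replicate 2, with 0.33 and -0.21, and moving the displaced one back left the mean at 0.06. The intervals of both synthase subunits included 0. KRE6, needed for β-1,6-glucan, read -0.09 and -0.09 in high copper and -0.11 and -0.25 in low copper (adjusted p 0.175). SKN1, its paralogue, read -0.36 and -0.39 in high copper and -0.06 and -0.03 in low copper (mean -0.21 ± 0.19, SD, n = 4; adjusted p 0.0711). Both β-1,6-glucan genes were below 0 on all 4 arrays, SKN1 further in high copper.

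No chitin synthase passed in limma, and neither of the 2 measured on all arrays had an unadjusted p under 0.05. CHS1, which repairs the septum during cell separation, stayed between -0.15 and 0.03 (adjusted p 0.787). CHS2, which makes the primary septum, read -0.02 and -0.18 in high copper and 0.33 and 0.21 in low copper (adjusted p 0.359). A second CHS2 spot, measured on 2 arrays alone, read -0.73 on high copper replicate 1 and -2.16 on low copper replicate 2, far from the first. CHS3, which makes most of the chitin of the wall and had no value on low copper replicate 1, read -0.45 and -0.33 in high copper and -0.16 in low copper. In a fit of genes measured on at least 3 arrays its mean was -0.27 (SE 0.08, adjusted p 0.127).

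All 5 daughter-separation genes had positive means, with a median of 0.29, and 2 passed. CTS1 (YLR286C), the endochitinase that cuts the septum, read 0.54 and 0.55 in high copper and 0.49 and 0.40 in low copper. It had the smallest spread among the genes called, with a mean of 0.49 ± 0.07 (SD, n = 4; 1.41-fold; adjusted p 0.0249), and with the sector moved back it was also called in high copper alone. DSE2 (YHR143W), a secreted daughter-specific glucanase-like protein, read 0.32 and 0.28 in high copper and 0.49 and 0.37 in low copper (mean 0.36 ± 0.09, SD, n = 4; 1.29-fold; adjusted p 0.0366). Both were above 0 on every array.

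DSE1, a daughter-specific protein, read -0.03 and 0.63 in high copper and 0.14 and 0.26 in low copper, and did not pass (adjusted p 0.223). Moved back, high copper replicate 1 read 0.72. The mean was then 0.44 ± 0.28 (SD, n = 4; adjusted p 0.0238), and the high copper mean was 0.67 (adjusted p 0.0344); over all alternatives the adjusted p of the mean ran from 0.0238 to 0.652. EGT2, which acts in septum removal, read 0.45 and 0.23 in high copper and 0.38 and 0.11 in low copper (mean 0.29 ± 0.15, SD, n = 4; adjusted p 0.0817). SCW11, a glucanase-like wall protein, read 0.05 and -0.15 in high copper and 0.55 and 0.20 in low copper (adjusted p 0.243).

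The integrity kinase and its factor did not pass, and neither had an unadjusted p under 0.05. SLT2 read 0.14 and 0.23 in high copper and -0.06 and 0.23 in low copper (mean 0.13 ± 0.13, SD, n = 4; adjusted p 0.252), and its 2 spots differed most on low copper replicate 1, at -0.26 and 0.15. RLM1 read -0.26 and -0.03 in high copper and 0.48 and 0.33 in low copper (adjusted p 0.246). A second RLM1 spot, measured on 3 arrays, read -1.27 and -1.28 in high copper and -1.13 in low copper. It lay far below the first spot on each of those arrays, so the value of RLM1 rests on which spot is read.

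The copper comparison asks whether the ratio of null over wild type differed between high and low copper. In 31 of the 37 genes the ratio was lower in high copper, with a median difference of -0.33, whereas over all genes 2470 of 5137 differences were negative and the median was 0.01. Both high copper arrays lay below both low copper arrays in 23 of the 37 genes (27.0% of all genes), and above them in KRE6 and CTS1 (25.2%), while 12 overlapped. With the sector moved back the counts were 22 below (27.0% of all genes) and 3 above (25.2% of all genes as deposited). SUN4 then overlapped, and DSE1 read higher on both high copper arrays (difference 0.47, limma adjusted p 0.226, against 0.10 as deposited). No single difference passed: with limma 0 members and 0 genes (0%) were called, and 13 members and 792 genes had an unadjusted p under 0.05. No member was called in any alternative that kept all 4 arrays, while 2 other genes were called with the sector moved back. The smallest adjusted p was 0.0564 over all genes and 0.224 over the members. Because the copper condition of the wild-type cells was not stated, a change in null cells and one in wild-type cells cannot be told apart here.

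**Figure D4:**
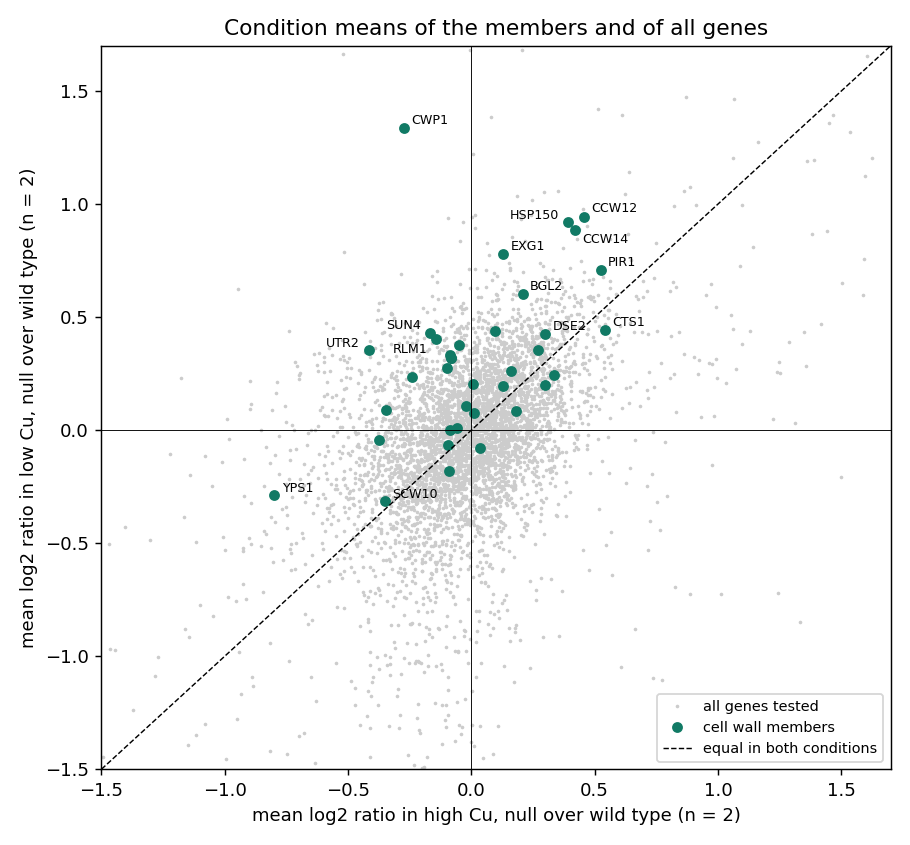
Mean log2 ratio of null over wild type in high copper (horizontal axis, n = 2) against that in low copper (vertical axis, n = 2) for the 37 members (green) and all 5137 genes tested (grey, 88 of them outside the axes). The dashed line marks equal values; 31 of the 37 members lie above it, CWP1 and UTR2 far above it, and CTS1 just below.

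The differences were negative in all 13 remodelling genes, all 4 Pir genes and all 7 GPI genes, in 2 of 4 glucan synthesis genes and 2 of 5 separation genes. In the GPI list both high copper arrays lay below both low copper arrays in all 7 (27.0% of all genes), with the spots of a gene averaged. PST1 was separated narrowly, with high copper replicate 1 at -0.03 and low copper replicate 2 at -0.02. At 1 of its 2 spots the conditions overlapped. In UTR2, SIM1, CHS2, CWP2 and RLM1 both high copper arrays were below 0 and both low copper arrays above it (7.88% of all genes), and no member showed the opposite (7.03%). UTR2 had the smallest p, with a difference of -0.77 (95% interval -1.08 to -0.46, adjusted p 0.224). EXG1 differed by -0.65 (95% interval -1.06 to -0.24, adjusted p 0.257) and HSP150 by -0.53 (95% interval -0.95 to -0.10, adjusted p 0.288). CWP1 had the largest difference, -1.61 (95% interval -2.62 to -0.59, adjusted p 0.257), which became -0.95 (adjusted p 0.19) with the sector moved back.

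These counts moved with the scaling and the arrays. Without centring, which shifted the median difference of all genes to 0.12, 23 of the 37 differences were negative (1732 of 5137 genes) with a median of -0.22. Non-overlap with high copper below then held for 20 of the 37 genes (16.7% of all genes) and with high copper above for 5 (38.2%). Uncentred, 8 of 13 remodelling, 4 of 4 Pir and 6 of 7 GPI differences were negative. With the sector moved back 12 of 13 remodelling differences were negative, SCW10 turning to 0.14. With 1 array left out, 10 to 12 of 13 remodelling, 3 or 4 of 4 Pir and all 7 GPI differences were negative, the lowest remodelling count without low copper replicate 1. With the arrays scaled to equal spread, 31 were negative, and with the sector moved back 30 were, with a median of -0.24. Averaging all measured spots, which brings in the second spots of RLM1 and CHS2, gave 30 and a median of -0.20. Leaving out 1 array at a time gave 28 to 30 negative differences. The members' median on each array was -0.03 and 0.03 in high copper and 0.42 and 0.21 in low copper. Low copper replicate 1, the array with the widest spread and most missing values, lay highest, and without it 28 differences were negative with a median of -0.22. Without low copper replicate 2, which leaves that array alone in its group and assumed to vary like the others, 6 members passed (CCW12, CIS3, EXG1, HSP150, UTH1 and UTR2), as did 14.5% of all genes, a share close to that of the members.

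Within low copper, limma called none of the 37 genes (0.662% of all genes). An unadjusted p under 0.05 was seen in 21 of them, and in 1569 of the 5137 genes tested. The lowest adjusted p there was 0.0625, for HSP150 and CCW12, at means of 0.92 ± 0.19 and 0.94 ± 0.25 (SD, n = 2 each). Within high copper, 11 of the 37 had an unadjusted p under 0.05, as did 1263 of the 5137 genes tested. Among the members, YPS1 alone passed after adjustment.

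Of other genes in the integrity pathway, 21 of 25 were tested over both conditions, with a median of 0.05. Of these, 3 were called higher (6.44% of all genes) and none lower (5.24%). PRM5, whose transcript is known to depend on Rlm1, read 0.78 and 0.86 in high copper and 1.18 and 0.81 in low copper (mean 0.91 ± 0.18, SD, n = 4; adjusted p 0.0204). SDP1, a phosphatase of Slt2, read 0.92 and 0.71 in high copper and 0.67 and 0.65 in low copper (mean 0.74 ± 0.13, SD, n = 4; adjusted p 0.0176). KDX1, a kinase related to Slt2, averaged 0.45 ± 0.14 (SD, n = 4; adjusted p 0.0346). All of these were above 0 on all 4 arrays, while SLT2 and RLM1 themselves did not pass. PTP3, a tyrosine phosphatase of MAP kinases chosen after its values were seen, had no value on low copper replicate 1. It read -1.40 and -0.999 in high copper and -0.86 in low copper, and fell in the fit of genes measured on at least 3 arrays (adjusted p 0.0463).

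Of other wall synthesis genes 19 of 22 were tested, and limma called 2 higher (6.44% of all genes). CHS7, which exports Chs3 from the endoplasmic reticulum, averaged 0.40 ± 0.19 (SD, n = 4, limma adjusted p 0.0314). GNA1, an enzyme on the path to the chitin precursor, averaged 0.35 ± 0.12 (SD, n = 4, limma adjusted p 0.0447). The list's median was 0.05. Of other wall proteins 14 of 18 were tested, with a median of 0.22. The mannoprotein gene TIP1 read 0.47 and 0.76 in high copper and 1.404 and 1.385 in low copper (mean 1.003 ± 0.467, SD, n = 4; adjusted p 0.0121). It showed the order of conditions seen in the GPI list, and passed in low copper alone (adjusted p 0.0322). The flocculin gene FLO1 was lower (-0.54 ± 0.39, SD, n = 4; adjusted p 0.0302), and the flocculin genes have near-identical copies, so its signal is uncertain.

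Separation genes are transcribed in the daughter cell at the end of mitosis, and the RAM kinase network is needed for this. Of 13 further genes listed with that network and with daughter separation, 10 were tested and limma called 0 (list median -0.01), with 1 under an unadjusted p of 0.05 (DSE3, 0.18, adjusted p 0.126) and KIC1 next (0.13, adjusted p 0.204). Cell cycle phase genes were measured beside them. Of the 8 histone genes of S phase, 6 rose (HTA1, HTA2, HHT1, HHF1, HHT2 and HHF2), where 6.44% of all genes did. The histone list's median was 0.43, and all 8 were above 0 on all arrays (20.0% of all genes). The 8 are paired by name, and hybridisation between paired genes was not tested, so they may not be 8 separate signals. Of the 9 genes of G2 and mitosis, the cyclin gene CLB2 fell (-0.42 ± 0.03, SD, n = 4; adjusted p 0.0285) and the ring protein gene IQG1 rose (0.62 ± 0.40, SD, n = 4; adjusted p 0.0373), with a list median of -0.13. Of G1 genes 0 of 6 passed, 2 having an unadjusted p under 0.05, the list's median being 0.04, with PCL1 at 0.22 (adjusted p 0.0936) and CLB5 at -0.19 (adjusted p 0.1). Of M/G1 genes 0 of 6 passed, 1 having an unadjusted p under 0.05, the list's median also being 0.04, with PCL2 at -0.24 (adjusted p 0.0612) and ASH1 at 0.19 (adjusted p 0.153). The medians of the phase lists thus lay on both sides of 0, and the part of the cell cycle in the values of CTS1 and DSE2 was not tested. In RNA of whole cultures, fewer cells at a stage and less RNA per cell cannot be told apart.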

How the data were processed

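The deposited table held 1 log2 ratio per spot, array and dye pair; how the authors normalised it, and the base of the logarithm, are not given in the sources used here. Base 2 and the direction Cy5 over Cy3 were taken from the pattern of the values, the dyes in the labels and the HAA1 spot, so signs and p-values do not rest on the base while folds do. Of 8832 spots, 6956 had 1 gene name in the platform annotation and 1876 had none. No coordinates are given because the array's build was not stated, and no sequences are shown.

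From every value the array's median was subtracted, taken over the 6912 spots with a value on each of the 4 arrays; it was 0.007 and 0.014 in high copper and -0.157 and -0.040 in low copper. Spots of a gene measured on all arrays were averaged. Linear models with a mean for each copper condition were fitted to 5137 genes by lmFit and eBayes of limma 3.58.1 under R 4.3.3 (2 residual and 2.22 prior degrees of freedom) and tested on simulated data. Tests were made of the average of the conditions, of each condition, and of high minus low copper, with p-values adjusted by Benjamini-Hochberg over all genes (threshold 0.05). Printed sectors of 552 spots (23 rows of 24) were compared between each array and the mean of the others. Shifts of up to 2 rows and 2 columns were scanned, and the best correlation was kept.

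All 38 members were named, with the called genes of every other list or, where none was called, the 2 with the smallest p. Members and lists were chosen with earlier results of these data known. Alternatives changed the centring, array spread, spot averaging, missing-value filter, copper term, arrays in the fit, a block for the repeat-marked arrays and the displaced sector; centring each sector and averaging all measured spots were added after seeing the data. Replicate numbers follow the order of the records and pair no arrays.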

Additional observations from a re-analysis of the deposited data

Results flagged for a closer look

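In UTR2, SIM1, CHS2, CWP2 and RLM1, both high copper arrays lay below 0 and both low copper arrays above it, so that the ratio of null over wild type had opposite signs in the conditions; 7.88% of all genes tested showed this order. The high minus low copper difference was -0.77 in UTR2, -0.55 in RLM1, -0.40 in SIM1, -0.40 in CWP2 and -0.37 in CHS2. None of these differences passed limma's test of high minus low copper, with adjusted p-values of 0.224 for UTR2, 0.262 for RLM1, 0.295 for SIM1, 0.302 for CWP2 and 0.302 for CHS2. In CWP2 the value of high copper replicate 1 came from the displaced sector, and with the sector moved back the signs stayed as they were (-0.38 and -0.13 in high copper, 0.44 and 0.21 in low copper). The second spots of RLM1 and CHS2, left out because they were not measured on all 4 arrays, lay below 0 on every array that measured them, low copper included. With 2 arrays in each condition, no single array could be checked as an outlier within its group.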

How the results depend on the processing

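As deposited, 10 members were called over both conditions, 0 in low copper, 1 in high copper and 0 between conditions. Over both conditions the count was 0 with a replicate block (36 genes in all), 4 without a copper term (CCW12, CTS1, DSE2 and PIR1), and 0 to 14 with 1 array left out: 0 without either high copper array, 10 without low copper replicate 1 (18.7% of all genes) and 14 without low copper replicate 2 (37.8%). Over all genes the count was 600 as deposited, 903 at equal spread, 292 without a copper term and 0 to 1940 with 1 array left out. In low copper it was 2 with arrays scaled to equal spread (1.01% of all genes), 1 with the sector moved back (1.22%), and 0 to 16 with 1 array left out, 16 without low copper replicate 2 (28%). In high copper it was 6 at equal spread (7.53%), 0 with the replicate block, 3 with the sector moved back (3.9%), 10 in the high copper arrays alone (17.5%), and 0 to 10 with 1 array left out, 10 without either low copper array (17.5%) and 0 without either high copper array. Between conditions it was 0 to 6 with 1 array left out, 6 without low copper replicate 2 (14.5%), and 0 in the other alternatives. The other alternatives left 7 to 13 members called over both conditions (7.9% to 17.6% of all genes), the 13 at equal spread, where 17.6% passed. They left 0 in low copper (0% to 0.759% of all genes) and 1 in high copper (1.73% to 3.21%). No called member changed sign in any alternative. Without centring, calls over all genes split into 181 higher and 225 lower over both conditions, against 331 and 269 centred, and into 2 and 17 in low copper, against 12 and 22 centred. The labels do not say what the repeat mark stands for. The deviations of the marked arrays from their condition means had a correlation of 0.087 across genes. With 2 arrays a condition, this value cannot show whether the marked arrays shared a source, and the block removes a degree of freedom. With 2 arrays a condition, a missing call does not show that a gene kept its level, and the signal over background was unknown.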
